A study of Mus musculus with 24 samples.

Results

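The comparison set 6 Trem2 knockout mice (Trem2KO) against 6 mice labelled heterozygous for a Plcg2 knockout (Plcg2HET), 12 of the 24 cortical libraries of the study. Members were chosen by the genotype in the library names, and sex, also taken from those names, entered as a covariate. The 5xFAD transgenes, human amyloid precursor protein and presenilin with familial mutations that lead to amyloid plaques, were present in all 12 mice, which were 7.5 months old. Each group held 3 males and 3 females, and each library came from the cortex of 1 mouse. Trem2KO mice carried no Plcg2 knockout label, and Plcg2HET mice carried no Trem2 knockout label. The other 12 libraries of the study, also from 5xFAD mice, were labelled wild-type or homozygous Plcg2 knockout. The wild-type libraries were not used, and mice without 5xFAD were not part of the comparison. The labels do not give the targeted exons, the source of the alleles, litters or sequencing batches. Adjusted p-values weigh the group difference against the spread between these mice. They cannot tell the genotype apart from a litter or batch that differs between the groups. Libraries are named by genotype and by the sex and number in the labels (M1, F3).

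TREM2 is a surface receptor for lipids on microglia, the phagocytes that reside in brain tissue. It signals through the adaptor TYROBP (DAP12), whose ITAM motif recruits the kinase SYK, and phospholipase C gamma 2, encoded by Plcg2, acts downstream and cleaves a membrane phosphoinositide. Around amyloid plaques, microglia take on a state called disease-associated microglia (DAM), in which a TREM2-dependent second stage follows a TREM2-independent first stage. The comparison therefore sets the loss of the receptor against a reduced gene dose, by label, of an enzyme below it.

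Total counts ran from 54768477 to 82990818 in Trem2KO and from 36272966 to 68914247 in Plcg2HET. Genes linked to sex matched the label in 12 of 12 libraries, and correlations between libraries lay between 0.955 and 0.993. Rn45s, a ribosomal RNA precursor, took 29% of counts in Plcg2HET F3, 5.29% in Plcg2HET F1 and at most 3.5% elsewhere. Each library's deviations from the mean followed GC content to different degrees (Spearman correlation across genes). The correlation was -0.576 and -0.537 in Plcg2HET M3 and F2, 0.0814 to 0.504 in the other Plcg2HET libraries and -0.357 to 0.343 in Trem2KO. On the first principal component, which held 30% of the variance, Plcg2HET libraries had an SD of 41 against 7.9 in Trem2KO. Plcg2HET M2 lay furthest out at 80, against -32.4 to 34.9 in the other Plcg2HET libraries. Plcg2HET libraries therefore stood apart from each other more than Trem2KO libraries did. Counts are also given without F1 and F3, which leaves F2 as the only Plcg2HET female, and without M3 and F2. Neither pair includes M2, and a call lost without a pair comes from a smaller group. Hba-a1 and Hbb-bs, the haemoglobin genes that mark blood, were at 0 in all 12 libraries.

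**Figure D1:**
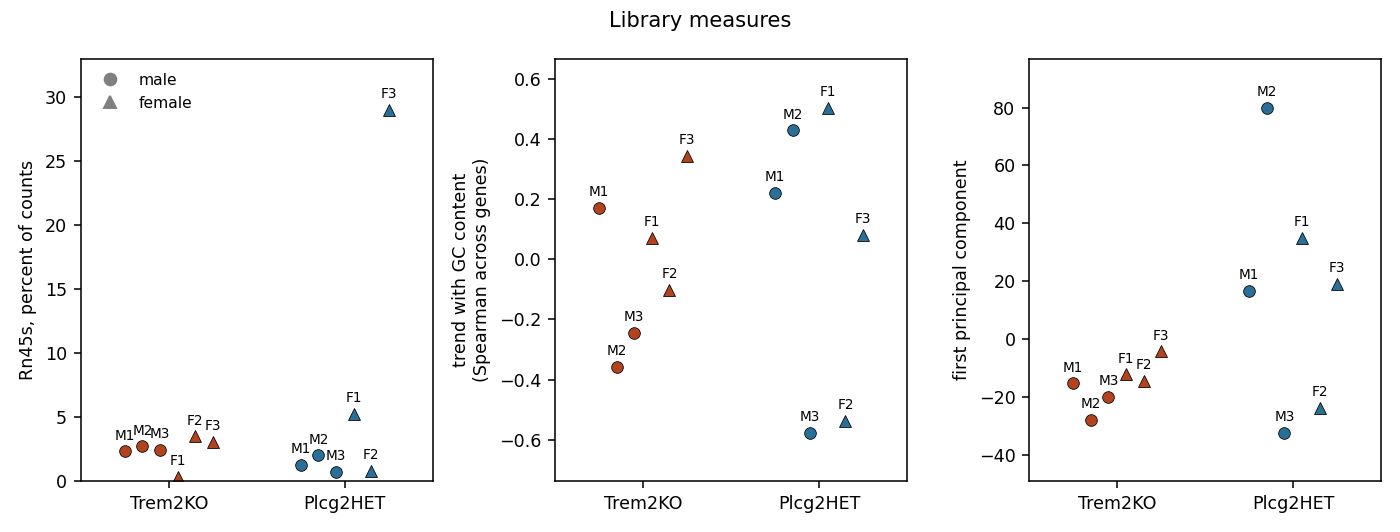
Share of counts from Rn45s (percent), Spearman correlation across genes between GC content and the deviations of a library, and position on the first principal component, for each of the 12 libraries (points; circles males, triangles females). Plcg2HET F3 stands apart at 29% Rn45s, and Plcg2HET M3 and F2 lie at the negative end of the GC correlation.

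Trem2 transcript was nearly lost in Trem2KO, and Plcg2 transcript did not differ detectably between the groups. Trem2 (mm10 chr17:48346401-48352276, plus strand) stood at 4.45, 4.69 and 5.73 CPM (read counts relative to library size, scaled by TMM) in Trem2KO males and 7.17, 5.89 and 7.24 in females. In Plcg2HET it stood at 63.9, 74.4 and 54.1 CPM in males and 135, 86.1 and 126 in females. Every Trem2KO library lay far below every Plcg2HET library, and the mean of Trem2KO was 6.52% of that of Plcg2HET. Trem2 fell by 3.89 in log2 units (SE 0.16, adjusted p = 6.48e-09), and a two-sided exact permutation test of 6 against 6 gave p = 0.00216, the smallest it can give. With the deposited expected counts the log2 fold change was -4.62. A count sums over the exons of a gene, so the remaining counts in Trem2KO cannot be placed within the gene.

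Plcg2 (mm10 chr8:117498291-117635142, plus strand) stood at 9.38, 9.13 and 10.5 CPM in Trem2KO males and 11.9, 11.4 and 14.3 in females. In Plcg2HET it stood at 9.04, 13.8 and 5.68 CPM in males and 19.2, 8.54 and 13.6 in females. The groups overlapped over most of their range, and the lowest and the highest library were both Plcg2HET. The log2 fold change was -0.05, with a 95% interval of -0.50 to 0.39 (SE 0.21, adjusted p = 0.913), and the exact permutation test gave p = 0.939. The sign of this small difference turned without Plcg2HET M2 (0.0957) or F1 (0.101). For scale, the 6 homozygous Plcg2 knockout libraries of the study held 0.733 to 1.2 CPM. Total Plcg2 level thus did not separate the labelled heterozygotes from mice with no Plcg2 knockout label.

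Falls outnumbered rises. Of 15909 genes tested, 1321 were called at an adjusted p under 0.05 by edgeR's quasi-likelihood test (8.3%), of which 505 were higher in Trem2KO (3.17%) and 816 lower (5.13%). The falls were also the larger changes, since 200 genes were lower by over 2-fold (1.26%) and 13 higher by over 2-fold (0.0817%). The median log2 fold change over all genes was -0.01. Where the average log2 CPM reached 1, the largest falls after Trem2 were in Itgax (-3.45), Cst7 (-3.25), Clec7a (-2.59), Ccl6 (-2.41), Cd74 (-2.25), Ccl3 (-2.22), Capg (-2.11), St14 (-2.07), Plin4 (-2.04), H2-Ab1 (-1.89) and H2-Aa (-1.88). The 12 largest rises of named genes above that level stayed near 2-fold or below, from Ano1 (1.02) to Bend3 (0.83). In 492 genes every Trem2KO library lay below every Plcg2HET library (3.09%), and in 486 genes above (3.05%). The number called depended on single libraries. It was 877, 870, 762, 829 and 803 without Trem2KO M1, M2, F1, F2 and F3, and 849 without Plcg2HET F3. It was 587 without Plcg2HET F1 and F3 together and 5518 without Plcg2HET M3 and F2 together, where the split was 2717 higher and 2801 lower. With offsets for GC content and length and the replicate code as a block, the share of calls that were lower was 51.3%, against 61.8%.

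**Figure D2:**
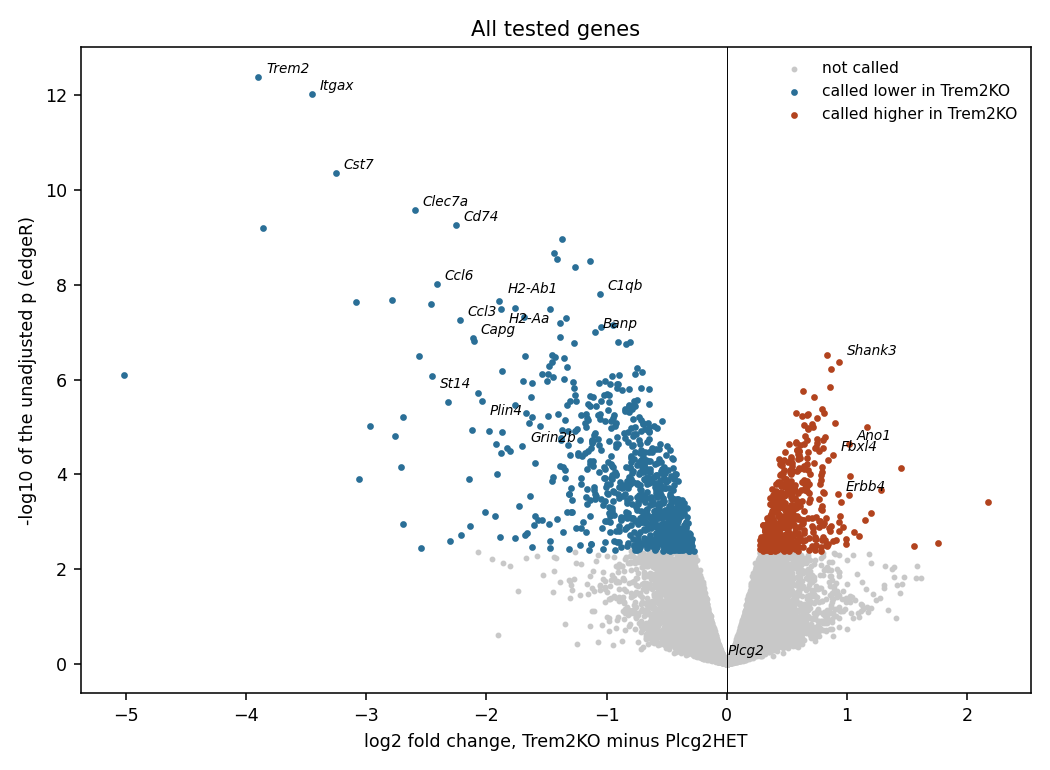
Log2 fold change of each of the 15909 tested genes (x axis, Trem2KO minus Plcg2HET) against -log10 of its unadjusted p from edgeR (y axis), with called genes in colour. Trem2, Itgax and Cst7 lie at the far left with the smallest p, and no rise reaches their size.

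Among the receptor complex and its ITAM signalling partners, 19 of 29 genes were lower in Trem2KO and 0 were higher (median log2 fold change -0.67). In 11 of the 29 the groups did not overlap with Trem2KO below, against 3.09% of all genes tested. For this list and each list below, the shares over all genes tested were 5.13% called lower and 3.17% called higher. The number lower was 12 without Plcg2HET F1 and F3 and 23 without Plcg2HET M3 and F2. The number of cells and the RNA per cell cannot be told apart in bulk cortex, here or for any cell type below. By deposited TPM, which allows genes to be compared per length, Tyrobp led the set in Plcg2HET at 307 ± 75.4 TPM, above Trem2 at 222 ± 71.1 TPM (SD, n = 6). Plcg2 stood at 5.46 ± 1.79 TPM and Syk at 4.97 ± 0.987 TPM, far below their receptor and adaptor.

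Tyrobp, the adaptor without which TREM2 does not signal, ranged from 12.7 to 27.5 CPM in Trem2KO (median 20.1) and from 30.4 to 70.8 CPM in Plcg2HET (median 46.4). The groups did not overlap, and the log2 fold change of Tyrobp was -1.33 (adjusted p = 0.000192, SE 0.15). Syk, the kinase that docks on the adaptor, ranged from 6.09 to 10.5 CPM in Trem2KO and from 7.41 to 18.1 CPM in Plcg2HET. Its groups overlapped, and it fell by 0.64 (SE 0.15, adjusted p = 0.018), a call lost without Trem2KO F1 or F2 (highest adjusted p 0.0515). The Src family kinases Fgr and Lyn fell by 2.45 and 0.49, and Fgr was scarce, at 0.153 to 0.397 CPM in Trem2KO and 0.826 to 2.91 CPM in Plcg2HET. Among adaptors and scaffolds, Lat2 (-1.48), Lcp2 (-0.96), Blnk (-0.69), Sh3bp2 (-0.69) and Pik3ap1 (-0.56) fell. Vav1 (-1.14) and Dock2 (-1.06), exchange factors that activate Rac GTPases, fell with Btk (-0.80), a kinase that activates PLCG2. Ptpn6 (-1.21), the phosphatase SHP-1, and Inpp5d (-0.82), the lipid phosphatase SHIP1, both of which restrain this signalling, fell as well. Was (-0.72), Card9 (-0.86), Prkcd (-0.64) and Nfatc1 (-0.67), which act further down, were also lower. The calls of Syk, Btk, Was, Card9, Prkcd, Pik3ap1 and Sh3bp2 were lost without Plcg2HET F1 and F3. Of the 10 members that were not called, those reported here are Plcg2, Dok3 (-0.60), Hcst (-0.59), Pik3cg (-0.43), Vav3 (-0.34), Itpr2 (-0.26), Rasgrp3 (-0.20), Pik3r5 (-0.14) and Pik3cd (-0.13), each with a negative value.

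Of 11 other receptors of the Trem-like and CD300 families, 4 were abundant enough to be tested and 2 of these fell, 1 without Plcg2HET F1 and F3 and 4 without Plcg2HET M3 and F2. Treml2, a neighbour of Trem2, fell by 1.10 (SE 0.23, adjusted p = 0.00967), with 0.627 to 1.5 CPM in Trem2KO and 0.929 to 3.81 CPM in Plcg2HET, which overlap. Its call was lost without Plcg2HET F1 and F3. Cd300lb was at most 0.0855 CPM in Trem2KO and 0.2 to 0.671 CPM in Plcg2HET. Within 1 Mb of Trem2, Treml2 was the 1 gene called of 23 tested (4.35%), and within 1 Mb of Plcg2 0 of 14 were called, against 8.3% of all genes. Within 5 Mb of Plcg2, 8 of 75 genes were called (10.7%), among them Irf8 and Banp.

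Of 18 DAM stage 2 genes, which include Trem2 itself, 12 were lower in Trem2KO and 0 were higher (median -1.18), with 11 lower when Plcg2HET F1 and F3 were left out. Itgax, the integrin subunit CD11c (mm10 chr7:128129568-128150657, plus strand), ranged from 1.35 to 3.85 CPM in Trem2KO (median 2.73) and from 17.0 to 41.0 CPM in Plcg2HET (median 29.7). The 2 groups were separated by more than the whole range of Trem2KO, and Itgax fell by 3.45 (SE 0.15, adjusted p = 7.56e-09). Cst7, an inhibitor of cysteine cathepsins (mm10 chr2:150570415-150578944, plus strand), ranged from 3.02 to 10.2 CPM in Trem2KO (median 6.57) and from 33.5 to 87.5 CPM in Plcg2HET (median 52.6). Again no library of one group reached the other, and Cst7 fell by 3.25 (SE 0.18, adjusted p = 2.32e-07). Clec7a, the beta-glucan receptor dectin-1 (mm10 chr6:129461591-129472779, minus strand), ranged from 2.96 to 8.94 CPM in Trem2KO and from 22.7 to 49.2 CPM in Plcg2HET, without overlap. It fell by 2.59 (SE 0.17, adjusted p = 1.05e-06).

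Ccl6, a chemokine gene, stood at 4.77 to 8.44 CPM in Trem2KO and 21.4 to 57.1 CPM in Plcg2HET and fell by 2.41 (SE 0.20, adjusted p = 1.26e-05). Lilrb4a, an inhibitory receptor, fell by 2.10, and Gpnmb, a glycoprotein of lipid-laden phagocytes, by 1.63. Spp1, which encodes osteopontin, held a narrow 7.42 to 9.2 CPM in Trem2KO and a wide 10.7 to 42.8 CPM in Plcg2HET, a fall of 1.38 (SE 0.22, adjusted p = 0.00148). The lysosomal genes Cd68 (-1.33), Ctsz (-1.02) and Ctsl (-0.47) fell as well. Axl, a receptor for apoptotic cells, fell by 0.37, a call lost without Trem2KO M2, F1, F2 or F3 or Plcg2HET M2, F1 or F3 (highest adjusted p 0.089), and also without Plcg2HET F1 and F3 together. The 6 members not called were Igf1 (-0.71), Cd63 (-0.45), Csf1 (-0.27), Cd9 (-0.24), Lpl (-0.24) and Timp2 (0.28). Of 7 DAM stage 1 genes 4 fell (median -0.75), namely Tyrobp, Lyz2 (-1.04), the lysosomal protease Ctsd (-0.90) and B2m (-0.75). Apoe, the most abundant lipid carrier gene of the list, stood at 2453 ± 301 CPM in Trem2KO and 3374 ± 1061 CPM in Plcg2HET (SD, n = 6) and was not called (-0.46, adjusted p = 0.118), and neither were Ctsb (-0.19) and Fth1 (-0.05).

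**Figure D3:**
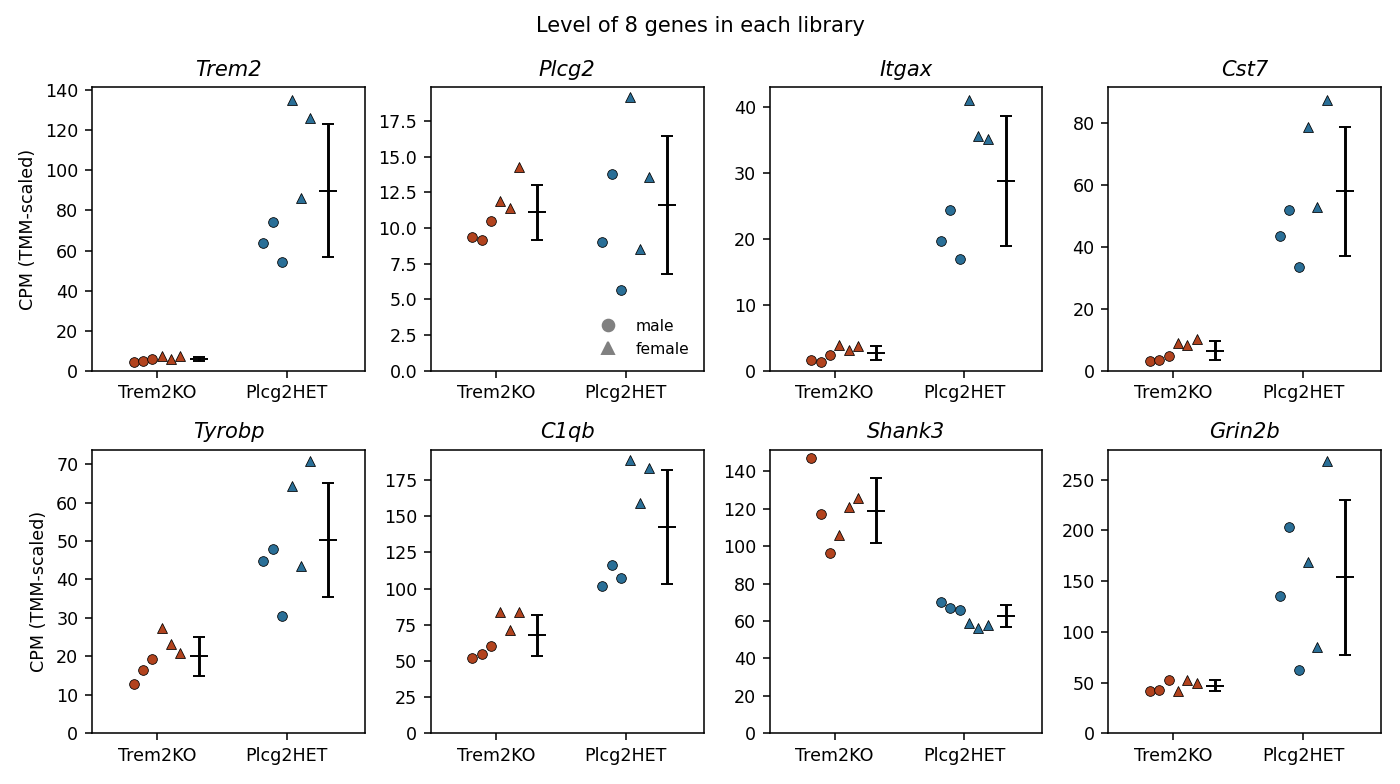
TMM-scaled CPM of 8 genes in each of the 12 libraries (circles males, triangles females), with the mean and SD of each group of 6 beside the points. Trem2, Itgax, Cst7, Tyrobp, C1qb and Grin2b show no overlap with Trem2KO below, Shank3 shows no overlap with Trem2KO above, and the Plcg2 values overlap.

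The sequences upstream of Trem2, the gene knocked out by label, and of the 3 steepest falls after it are shown as a description. They are the 250 bases before the RefSeq start on GRCm38.p6, written 5′ to 3′ on the strand of the gene. They lie at chr17:48346151-48346400 (plus) for Trem2, chr7:128129300-128129549 (plus) for Itgax, chr2:150570165-150570414 (plus) for Cst7 and chr6:129472780-129473029 (minus) for Clec7a. Capitals mark matches, on either strand, to GAGGAA, the core recognised by the myeloid factor PU.1, and to TGANTCA, the site of AP-1 factors.
Trem2: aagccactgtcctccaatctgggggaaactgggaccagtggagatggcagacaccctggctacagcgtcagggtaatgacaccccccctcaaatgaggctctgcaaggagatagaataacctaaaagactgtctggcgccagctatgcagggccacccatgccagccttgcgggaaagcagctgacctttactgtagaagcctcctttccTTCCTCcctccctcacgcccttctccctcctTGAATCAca
Itgax: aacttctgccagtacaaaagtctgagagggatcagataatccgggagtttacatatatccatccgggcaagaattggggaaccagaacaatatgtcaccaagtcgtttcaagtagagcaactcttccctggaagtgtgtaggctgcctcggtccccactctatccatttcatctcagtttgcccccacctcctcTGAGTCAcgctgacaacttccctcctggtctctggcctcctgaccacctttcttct
Cst7: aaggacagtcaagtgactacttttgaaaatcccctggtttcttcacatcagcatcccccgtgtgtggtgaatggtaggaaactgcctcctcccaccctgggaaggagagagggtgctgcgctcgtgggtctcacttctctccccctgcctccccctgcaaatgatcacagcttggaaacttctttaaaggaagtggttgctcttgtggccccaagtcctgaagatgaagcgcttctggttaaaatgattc
Clec7a: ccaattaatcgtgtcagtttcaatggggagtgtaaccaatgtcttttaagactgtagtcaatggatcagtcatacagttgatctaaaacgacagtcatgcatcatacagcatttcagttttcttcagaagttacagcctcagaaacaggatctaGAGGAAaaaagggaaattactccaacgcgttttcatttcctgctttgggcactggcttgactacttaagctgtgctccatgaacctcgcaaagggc
Trem2 held 1 match to each motif, Itgax 1 to the AP-1 site, Clec7a 1 to the PU.1 core and Cst7 none. Over the 11917 tested genes with such a window, 22.3% held GAGGAA and 4.28% held TGANTCA. The shares were 38.1% and 11.2% among 134 genes called lower by over 2-fold, and 19.9% and 2.25% among 356 genes called higher. Of 13 pan-microglial genes with a window, 9 held GAGGAA and 0 held TGANTCA. Of 16 DAM stage 2 genes with a window, which include the 4 shown, 7 held GAGGAA and 4 held TGANTCA. The MITF and TFE site CACGTG was in 8.18% of all windows and 4.48% of those lower by over 2-fold. These are matches of letters in a window, given as a description with no test, and windows without a match say nothing of the factor.

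Genes that microglia express in most states were lower as well, by a smaller factor. All 15 pan-microglial genes fell (median -0.95), 14 or 15 when any 1 library was left out, 12 without Plcg2HET F1 and F3 and 15 without Plcg2HET M3 and F2. C1qb, a chain of the complement initiator C1q, ranged from 51.9 to 84.0 CPM in Trem2KO (median 65.6) and from 102 to 189 CPM in Plcg2HET (median 138). No library of one group reached the other, and C1qb fell by 1.06 (SE 0.09, adjusted p = 1.87e-05). Irf8, a transcription factor of the myeloid lineage, fell by 1.47, Ptprc, the leukocyte antigen CD45, by 1.27 and Laptm5, a lysosomal membrane protein of leukocytes, by 1.27. Of 18 homeostatic genes 13 fell (median -0.65), against 8 without Plcg2HET F1 and F3. The list as written includes Gpr84, a receptor for medium-chain fatty acids, whose fall of 1.87 was the largest of the list. Olfml3, a secreted matrix protein, fell by 1.12 and Gpr34 by 0.76. P2ry12, the purine receptor that marks surveying microglia, was not called (-0.34, adjusted p = 0.0832). The summed level of 7 microglial markers ran from 389 to 529 CPM in Trem2KO and from 539 to 1010 CPM in Plcg2HET, without overlap, and 6 of the 7 were called.

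Levels were also set against the pan-microglial genes of the same library, and DAM stage 2 genes then fell on both sides of them. The mean of the 15 pan-microglial genes on log2(CPM + 0.5) was 3.93 to 4.16 in Trem2KO males, 4.38 to 4.48 in Trem2KO females, 4.73 to 4.94 in Plcg2HET males and 5.17 to 5.53 in Plcg2HET females. The highest values were those of Plcg2HET F3 (5.53) and F1 (5.48), the pair left out above. The difference between the groups in this mean was -0.89. Relative to that mean, Itgax was still lower in Trem2KO by 2.33 on the log2 scale, Cst7 by 2.24, Clec7a by 1.58, Ccl6 by 1.40, Lilrb4a by 0.66 and Cd68 by 0.41, with no overlap of the groups. Lilrb4a stood at only 0.405 to 0.962 CPM in Trem2KO, where the added 0.5 shrinks its difference. Gpnmb (-0.61), Spp1 (-0.41), Tyrobp (-0.41) and Gpr84 (-0.69), which the homeostatic list includes, were lower with overlap. Other DAM stage 2 genes stood higher relative to the mean in Trem2KO without overlap, namely Ctsl (0.41), Axl (0.52), Csf1 (0.63), Cd9 (0.66) and Timp2 (1.17). Unlike Gpr84, other genes of the homeostatic list also stood higher without overlap, among them Tmem119 (0.40), Cx3cr1 (0.48), P2ry13 (0.53) and Siglech (0.62). Plcg2, of the ITAM signalling list, was also higher in Trem2KO by 0.91, from -0.85 to -0.55 there and from -2.1 to -1.1 in Plcg2HET. Other members of that list stood higher without overlap, namely Pik3cd (0.766), Pik3r5 (0.765), Rasgrp3 (0.71), Itpr2 (0.64) and Lyn (0.42), and Trem2 stood lower (-2.88). On this scale any gene that fell by less than the mean stands higher. Plcg2 had the highest value of its list, and whether it differs from the other members was not tested. These relative values are descriptions, with no test, and the genes named from them were chosen after their values were seen.

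**Figure D4:**
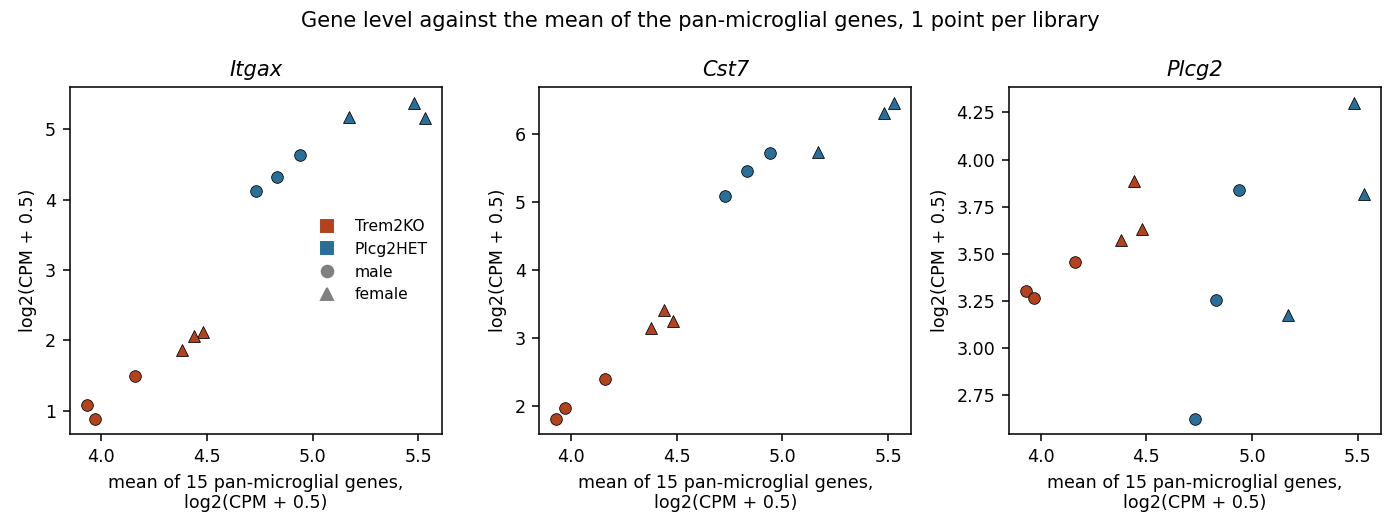
Level of Itgax, Cst7 and Plcg2 (y axis, log2(CPM + 0.5)) against the mean of 15 pan-microglial genes (x axis, same scale), 1 point per library, coloured by genotype with circles for males and triangles for females. Itgax and Cst7 lie lower in Trem2KO by more than the shift along the x axis, whereas the Plcg2 values of the groups overlap although the microglial mean is lower in Trem2KO.

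Immunoglobulin and inhibitory receptors followed the same direction. Of 6 Fc receptor genes 5 fell (median -1.23), with 3 called without Plcg2HET F1 and F3. Fcgr2b, the inhibitory IgG receptor, ranged from 4.04 to 7.12 CPM in Trem2KO and from 10.1 to 17.6 CPM in Plcg2HET. Without overlap between the groups, it fell by 1.37 (SE 0.10, adjusted p = 2.47e-06). Fcer1g, the ITAM adaptor of Fc receptors, fell by 1.45, Fcgr4 by 1.45 and Fcgr3 by 1.09. Of 16 myeloid C-type lectins and inhibitory receptors 9 fell (median -0.86), and after Clec7a and Lilrb4a the smallest p-values were those of Cd84 (-1.14), an adhesion receptor, and Lair1 (-0.77), a collagen receptor. Of 12 chemokine genes 4 fell, namely Ccl6, Ccl3, Cxcl16 (-1.32) and Ccl4 (-1.61). Ccl3 stood at 0.513 to 1.46 CPM in Trem2KO and 3.36 to 8.64 CPM in Plcg2HET, without overlap. The Ccl4 call was lost without Trem2KO M1, F1, F2 or F3 or Plcg2HET F1 (highest adjusted p 0.066). Without Plcg2HET F1 and F3 together the calls of Ccl4 and Fcgr4 were lost. Cxcl16 shares exon bases with an antisense gene, and the strand setting of the counting is not given.

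Of 15 complement genes 8 fell (median -0.76), among them C3ar1 (-1.26), the receptor for C3a, Itgb2 (-0.84), the beta chain of complement receptor 3, C1qb and C1qa (-0.98). C3ar1 ranged from 5.74 to 9.06 CPM in Trem2KO and from 12.9 to 23.5 CPM in Plcg2HET, and the groups did not overlap. MHC class II genes fell in 6 of 7 (median -1.88), 6 also without Plcg2HET F1 and F3. Cd74, the invariant chain, ranged from 5.1 to 7.66 CPM in Trem2KO and from 20.8 to 42.3 CPM in Plcg2HET, without overlap, and fell by 2.25 (SE 0.15, adjusted p = 1.69e-06). H2-Ab1 and H2-Aa, the 2 chains of the I-A molecule, fell by 1.89 and 1.88, and H2-DMb1, which helps to load peptides, by 0.95. MHC class I genes fell in 3 of 14 (median -0.33), namely B2m, Psmb8 (-0.96), a subunit of the immunoproteasome, and H2-K1 (-0.49). That count was 6 without Plcg2HET F2, 1 without Plcg2HET F1 and F3, and 10 without Plcg2HET M3 and F2. The H2-K1 call was lost without 8 of the single libraries, namely Trem2KO M2, M3, F1, F2 and F3 and Plcg2HET M1, F1 and F3 (highest adjusted p 0.0893). The calls of H2-K1 and Psmb8 were lost without Plcg2HET F1 and F3 together. MHC genes have close copies whose reads can be split or lost, so their values are uncertain.

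Interferon response genes fell in 11 of 25 and rose in 1 (median -0.53). Trim30a, which dampens inflammatory signalling, fell by 1.36, Oas1a, a sensor of double-stranded RNA, by 1.36, Lgals3bp by 0.85 and Ifit3 by 0.76, each with overlapping groups. The gene that rose was Gbp4 (1.02, SE 0.19, adjusted p = 0.00468), a guanylate-binding protein, at 2.07 ± 0.509 CPM in Trem2KO and 1.02 ± 0.204 CPM in Plcg2HET (SD, n = 6). The count of falls was 7 without Trem2KO M1, M2, F1 or F2 or Plcg2HET F3, and 3 without Plcg2HET F1 and F3 together, where the Oas1a call was among those lost. Toll-like receptor and inflammation genes fell in 10 of 25 (median -0.50), with Tlr2 (-1.48), which senses bacterial lipoproteins, Cd14 (-1.45), a co-receptor for lipopolysaccharide, Tlr7 (-0.92) and Tlr1 (-0.90) at the smallest p. That count was 6 without Trem2KO M1 or F1 or Plcg2HET F1, and 4 without Plcg2HET F1 and F3 together.

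Lysosome and phagosome genes fell in 14 of 28 (median -0.43), 12 to 18 when any 1 library was left out and 12 without Plcg2HET F1 and F3. Ctsd, one of the most abundant, stood at 563 to 868 CPM in Trem2KO and 988 to 1860 CPM in Plcg2HET. All Trem2KO libraries lay below, and Ctsd fell by 0.90 (SE 0.10, adjusted p = 8.13e-05). Atp6v0d2, a subunit of the proton pump found in macrophages and osteoclasts, was at 0 to 0.101 CPM in Trem2KO and 0.318 to 1.34 CPM in Plcg2HET. Lipid-handling genes were mixed, with 3 lower and 2 higher of 22 (median -0.13). These are 13.6% and 9.09%, against 5.13% and 3.17% of all genes tested. Lipa (-0.44), the lysosomal acid lipase, Npc2 (-0.41), a cholesterol carrier of the lysosome, and Ch25h (-1.92), which makes 25-hydroxycholesterol, fell, and Lrp1 (0.53), a receptor for lipoproteins, was among the rises. Lrp1, which neurons and astrocytes also express, stood at 378 to 509 CPM in Trem2KO and 255 to 334 CPM in Plcg2HET, without overlap. The Ch25h call was lost without Trem2KO F1, F2 or F3 and the Npc2 call without Trem2KO F1 or F3 (highest adjusted p 0.0601 and 0.055), and both without Plcg2HET F1 and F3 together. The count of falls was 1 without Trem2KO F1 or F3 and 6 without Plcg2HET M3 or F2. The count of rises was 1 without any 1 Trem2KO library or without Plcg2HET M1 or F3.

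Of 15 microglial transcription factors 6 fell (median -0.37), among them Irf8, Spi1 (-0.98), which encodes PU.1, Irf5 (-0.94) and Runx1 (-0.86). Spi1 stood at 4.78 to 7.88 CPM in Trem2KO and 6.78 to 19.5 CPM in Plcg2HET, which overlap, and 3 factors were called without Plcg2HET F1 and F3, where the calls of Spi1 and Irf5 were lost. Of 12 proliferation genes 1 fell (8.33%, against 5.13% of all genes tested), the cell cycle kinase gene Cdk1 (-1.30). Cdk1 stood at 0.152 to 0.53 CPM in Trem2KO and 0.585 to 1.49 CPM in Plcg2HET. Without Plcg2HET F1 and F3, 0 of the 12 were called.

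**Figure D5:**
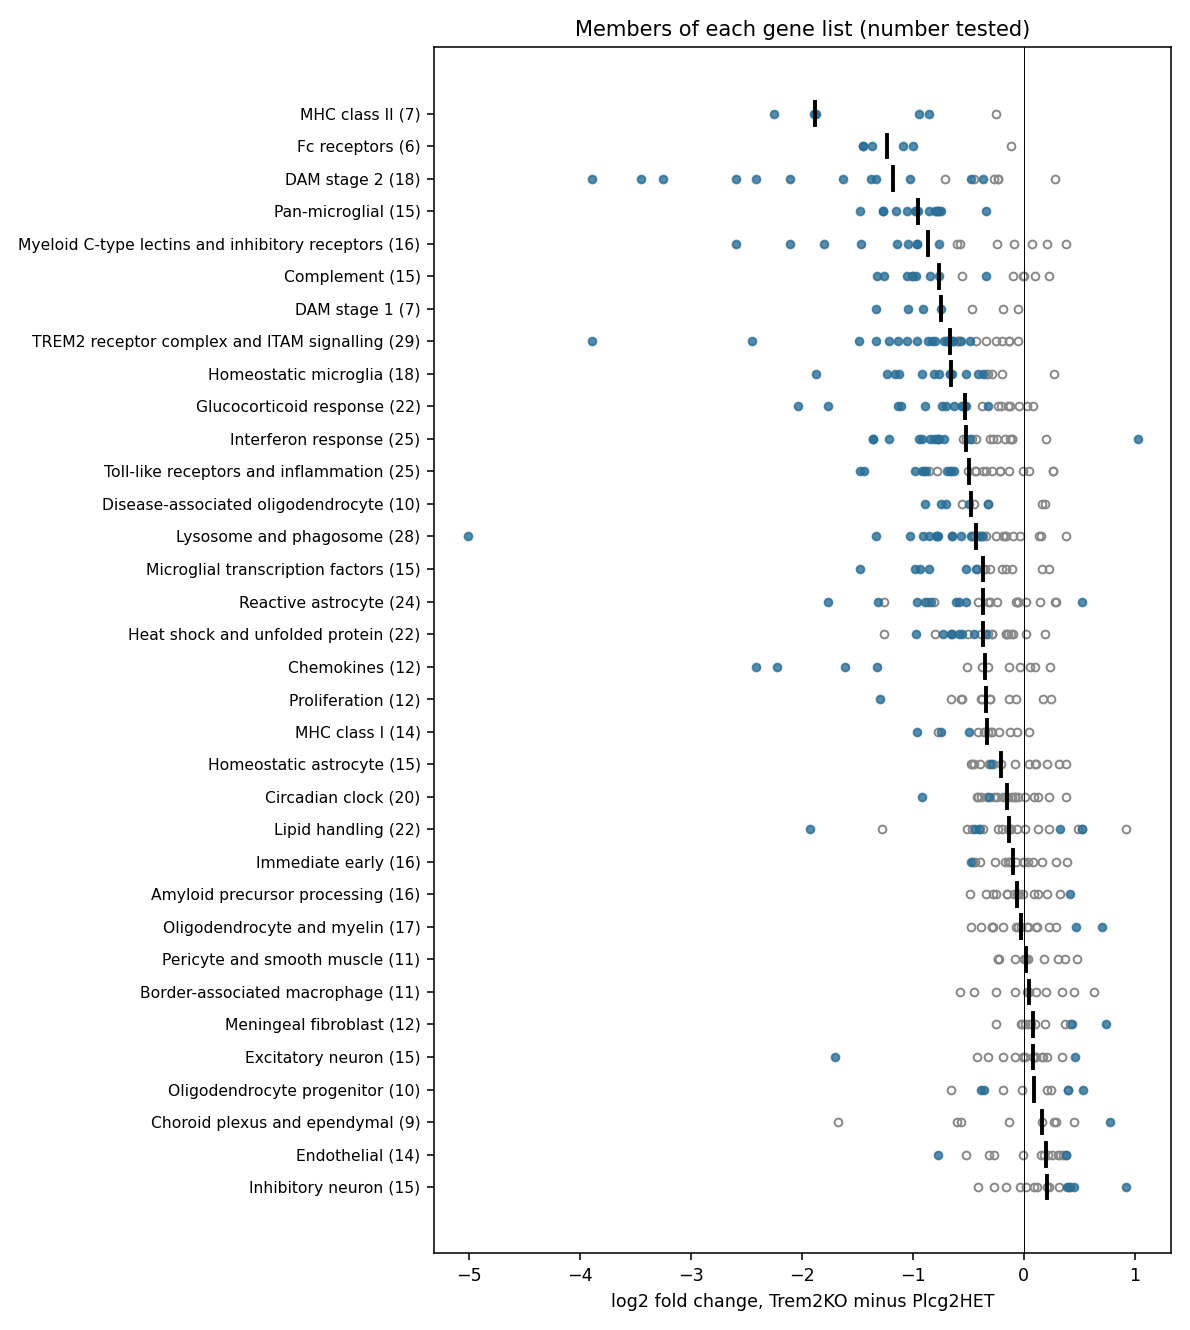
Log2 fold change (x axis, Trem2KO minus Plcg2HET) of the tested members of each gene list (rows, with the number tested), filled where called and open where not, with the median as a black bar. Lists of microglial genes lie to the left, with medians down to -1.88 for MHC class II, and lists of neurons, vessels and meninges lie around 0.

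Genes induced by glucocorticoids were also lower in Trem2KO, in 12 of 22 with 0 higher (median -0.54). Plin4, a lipid droplet coat protein, ranged from 3.11 to 8.58 CPM in Trem2KO (median 4.56) and from 11.4 to 38.3 CPM in Plcg2HET (median 20.7). The ranges were apart, and Plin4 fell by 2.04 (SE 0.27, adjusted p = 0.000518). Plin4 shares exon bases with an antisense gene. Hif3a, a hypoxia-inducible factor subunit, fell by 1.14, Mt2, a metallothionein, by 1.10 and Sult1a1, a sulfotransferase, by 0.74. The count was 7 without Trem2KO F1 or F3, 4 without Plcg2HET F1 and F3, where the Mt2 call was among those lost, and 16 without Plcg2HET M3 and F2. Circadian clock genes fell in 2 of 20 (10%, against 5.13% of all genes tested). Per2 stood at 22.9 to 45.1 CPM in Trem2KO and 48.8 to 66.9 CPM in Plcg2HET, without overlap, and fell by 0.92 (SE 0.14, adjusted p = 0.00143). The other, Cry2 (-0.32), lost its call without 10 of the single libraries (highest adjusted p 0.123), all but Plcg2HET M3 and F2, and without Plcg2HET F1 and F3 together. The time of day of collection is not in the labels.

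Heat shock and unfolded protein genes fell in 8 of 22 (median -0.37), led by 3 factors of the endoplasmic reticulum, Sdf2l1 (-0.97), Creld2 (-0.73) and Pdia4 (-0.64), and by the co-chaperone Bag3 (-0.66). Sdf2l1 ranged from 7.0 to 9.88 CPM in Trem2KO and from 11.4 to 18 CPM in Plcg2HET, and the groups did not overlap. The count was 5 without Trem2KO M1, M2, F1 or F3, 4 without Trem2KO F2 and 13 without Plcg2HET M3. It was 4 without Plcg2HET F1 and F3 together, where the Bag3 call was among those lost. Of 16 immediate early genes, induced by neuronal activity, 1 fell (6.25%, against 5.13% of all genes tested), Egr1 (-0.48). Its call was lost without any 1 Trem2KO library or without Plcg2HET M1, M2 or F2 (highest adjusted p 0.105). Without Plcg2HET F1 and F3 together 3 of the 16 were called lower.

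Of 24 genes of reactive astrocytes 8 fell and 1, Fbln5 (0.52), rose (median -0.37), but 0 were called in either direction without Plcg2HET F1 and F3. The Fbln5 call was lost without any 1 library but Plcg2HET M2, where 2 genes were higher. The falls included Psmb8, which is not specific to astrocytes, Serpina3n (-0.89), a serine protease inhibitor, Osmr (-0.58), the oncostatin M receptor, and Fkbp5 (-0.52), which is also a glucocorticoid target. Gfap, the intermediate filament of reactive astrocytes, stood at 1205 ± 473 CPM in Trem2KO and 2110 ± 1004 CPM in Plcg2HET (SD, n = 6), a fall of 0.84 (SE 0.20, adjusted p = 0.017). The count of falls was 5 without Trem2KO M2 or F3 or Plcg2HET F3 and 4 without Trem2KO F1. The Fkbp5 call was lost without Trem2KO F1 or F3 (highest adjusted p 0.0524). The summed level of 4 astrocyte markers ran from 1000 to 1110 CPM in Trem2KO and from 871 to 1070 CPM in Plcg2HET, which overlap. Of 15 homeostatic astrocyte genes 1 fell (6.67%, against 5.13% of all genes tested), the connexin gene Gjb6 (-0.30). The Gjb6 call was lost without any 1 Trem2KO library or without Plcg2HET M1, F1 or F3 (highest adjusted p 0.111). Of the 15 genes, 5 were lower and 2 higher without Plcg2HET M3, and 4 lower and 2 higher without Plcg2HET F2. Without M3 and F2 together 6 were lower and 5 higher. Without F1 and F3 together 0 were called by edgeR.

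Of 17 oligodendrocyte and myelin genes 0 fell and 2 rose, Opalin (0.70), a myelin protein, and Aspa (0.46), which breaks down N-acetylaspartate. Opalin stood at 37.9 to 46.9 CPM in Trem2KO and 16.2 to 32.8 CPM in Plcg2HET, without overlap, and its call was lost without Trem2KO M2, F1 or F3 or Plcg2HET F3 (highest adjusted p 0.0633). Disease-associated oligodendrocyte genes fell in 5 of 10, among them B2m, Serpina3n, Sgk1 (-0.70) and H2-K1. Of these B2m and H2-K1 are MHC class I genes that many cell types express. That count was 3 without Trem2KO M2, M3, F1 or F3 or Plcg2HET F1 or F3, 2 without Trem2KO F2 and 1 without Plcg2HET F1 and F3 together. The Sgk1 call was lost without Trem2KO M1 or F2 or Plcg2HET F3 (highest adjusted p 0.0566). Among 10 progenitor genes Ptprz1 (0.53) and Lhfpl3 (0.39) rose and Gpr17 (-0.36) and Neu4 (-0.38) fell. The Ptprz1 call was lost without Trem2KO M2 or F1 or Plcg2HET F3 and the Gpr17 call without Trem2KO M1, M2, F1 or F3 (highest adjusted p 0.0631 and 0.0732). The Neu4 call was lost without any 1 library but Plcg2HET M3 or F2 (highest adjusted p 0.119). Without Plcg2HET F1 and F3 together the calls of Opalin, Aspa, Sgk1, Ptprz1, Lhfpl3 and Neu4 were lost.

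Of 14 endothelial genes 1 fell and 1 rose (7.14% each, against 5.13% lower and 3.17% higher of all genes tested). Mfsd2a, the lipid transporter of the blood-brain barrier, stood at 9.06 to 10.6 CPM in Trem2KO and 14.4 to 19.7 CPM in Plcg2HET. Again the ranges were apart, and it fell by 0.77 (SE 0.10, adjusted p = 0.000518). Abcb1a (0.38), the drug efflux pump, rose, a call lost without Trem2KO M1, M2, F1, F2 or F3 or Plcg2HET M1, F1 or F3 (highest adjusted p 0.0895). Border-associated macrophage genes were called in 0 of 11 and pericyte genes in 0 of 11 by edgeR. Mrc1, the mannose receptor that marks border macrophages, stood at 5.8 CPM in Trem2KO and 3.74 CPM in Plcg2HET on average (0.64, adjusted p = 0.0933). That was the largest rise of the list, whose median was 0.05. Other markers of these cells went both ways. On average Pf4 (0.576 against 0.416 CPM) and F13a1 (3.88 against 3.79) were higher in Trem2KO, and Cd163 (2.12 against 2.26) and Lyve1 (0.782 against 1.07) lower. Of 12 meningeal fibroblast genes Col3a1 (0.74) and Col1a2 (0.43) rose. Col3a1 was not called without Trem2KO M1, M2, M3, F1 or F2 or Plcg2HET M2, and Col1a2 without any 1 Trem2KO library or without Plcg2HET M1, M3 or F1 (highest adjusted p 0.0805 and 0.102). Of 9 choroid plexus and ependymal genes 1 rose, Kl (0.78), which encodes klotho, a call lost without Trem2KO M2 or F1 (highest adjusted p 0.0574). The calls of Abcb1a, Col1a2 and Kl were lost without Plcg2HET F1 and F3 together, and that of Abcb1a also with offsets for GC content and length. The summed level of 4 choroid plexus markers was 3.71 to 5.72 CPM in Trem2KO and 5.7 to 11.2 CPM in Plcg2HET, which hardly overlap. Ttr, the most specific of these, was low in both groups and not called (-1.67, adjusted p = 0.0608).

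Of 15 inhibitory neuron genes 4 rose and 0 fell (median 0.21), 1 rising without Plcg2HET F1 and F3. Erbb4, the neuregulin receptor, ranged from 8.33 to 13.7 CPM in Trem2KO and from 3.71 to 7.73 CPM in Plcg2HET. Trem2KO lay above throughout, and Erbb4 rose by 0.92 (SE 0.19, adjusted p = 0.00855). Reln, the secreted protein reelin, rose by 0.45, Slc32a1, the vesicular transporter of GABA, by 0.39 and Vip, a neuropeptide of interneurons, by 0.40. The Slc32a1 call was lost with offsets for GC content and length (adjusted p = 0.0827 in edgeR). Without Plcg2HET F1 and F3 the calls of Slc32a1, Erbb4 and Vip were lost. The Vip call was also lost without any 1 library but Plcg2HET M3 or F2 (highest adjusted p 0.1). Gad1, which makes GABA, was not called (0.09), and the summed level of 3 inhibitory markers was 627 to 759 CPM in Trem2KO and 451 to 841 CPM in Plcg2HET, which overlap.

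Of 15 excitatory neuron genes Slc17a6 (0.46) rose, a call lost without Plcg2HET F1 and F3 together and without any 1 library but Plcg2HET M3 or F2 (highest adjusted p 0.131). Grin2b, a subunit of the NMDA receptor, was the 1 that fell (6.67% each way, against 3.17% higher and 5.13% lower of all genes tested). It ranged from 41.5 to 52.4 CPM in Trem2KO (median 46.2) and from 62.5 to 268 CPM in Plcg2HET (median 152). Every Plcg2HET library lay above every Trem2KO library, but Plcg2HET libraries were spread over a wide range. M3 and F2, the pair with the negative GC correlation, were the lowest at 62.5 and 84.7 CPM, and F3, the library rich in Rn45s, was the highest. Without M3 and F2 the adjusted p was 3.57e-08, and without F1 and F3 it was 0.0262, both in edgeR. With offsets for GC content and length the log2 fold change was -1.87 (adjusted p = 0.00188), and that call was lost when the replicate block was added to these offsets (adjusted p = 0.0557). The log2 fold change was -1.70 (SE 0.28, adjusted p = 0.00189). It stood at -1.55 in males and -1.86 in females, and the sex difference had an adjusted p of 1 in edgeR. Of 16 amyloid precursor processing genes 1 rose (6.25%, against 3.17% of all genes tested), Bace2 (0.42), a protease related to beta-secretase. The Bace2 call was lost without Plcg2HET F1 and F3 together and with offsets for GC content and length. It was also lost without any 1 library but Plcg2HET M2 or F2 (highest adjusted p 0.112). App, whose human form is one of the transgenes, stood at 2406 ± 160 CPM in Trem2KO and 1922 ± 250 CPM in Plcg2HET (SD, n = 6, 0.32, adjusted p = 0.0631).

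Of the 12 largest rises among named genes, Erbb4 was the 1 that belonged to a gene list. Shank3, a scaffold of excitatory synapses (mm10 chr15:89499857-89560260, plus strand), ranged from 96.6 to 147 CPM in Trem2KO (median 119) and from 56.4 to 70.0 CPM in Plcg2HET (median 62.2). Trem2KO libraries were all above, and it rose by 0.93 (SE 0.11, adjusted p = 0.000165). Ttc30b, a component of the transport machinery of cilia, stood at 14.2 to 16.7 CPM in Trem2KO and 7.3 to 10.1 CPM in Plcg2HET, without overlap, and rose by 0.87 (SE 0.10, adjusted p = 0.000203). Ano1, a calcium-activated chloride channel, rose by 1.02, Fbxl4, which limits removal of mitochondria, by 0.88, Itgb8, an integrin subunit that activates TGF-beta, by 0.94 and Bend3 by 0.83. Hcn4 (0.93), a pacemaker channel, and Col4a5 (0.86), a basement membrane collagen, rose too. Without Plcg2HET F1 and F3 the calls of Itgb8 (adjusted p = 0.0967), Bend3 (0.089) and Hcn4 (0.133) were lost in edgeR, and the groups of Itgb8 and Col4a5 overlapped. The Hcn4 call was lost without Trem2KO M1 or F2 or Plcg2HET F3 and the Col4a5 call without Trem2KO M1, M2, F1 or F3 or Plcg2HET F1 (highest adjusted p 0.0794 and 0.0754). Pcdhga8 (0.86), Pcdhgb1 (0.84) and Pcdhga11 (0.84), adhesion proteins of neurons, completed the 12 largest rises.

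The clustered protocadherins of the gamma type rose in 18 of 22 (median 0.59), against 2 of 21 of the beta type (median 0.34) and 0 of 13 of the alpha type (median 0.31). With offsets for GC content and length 18 of the gamma, 7 of the beta and 1 of the alpha type were higher, and the difference between the types was not tested. Pcdhga11 ranged from 33 to 36.9 CPM in Trem2KO and from 15.6 to 22.2 CPM in Plcg2HET, without overlap. The gamma genes share their 3′ exons, so 1 set of reads can enter several of them, and they are not separate observations. Cytosolic ribosomal protein genes were called in 0 of 78 by edgeR (median -0.000541), with 0 higher and 0 lower. With offsets for GC content and length, 6 of the 78 were higher and 2 lower (median 0.0656). Over all 15909 genes tested, these offsets gave 1590 higher and 1754 lower. Banp (-1.09) and Zc3h11a (-0.80), both outside the gene lists and picked after their values were seen, fell with little spread. Banp, a nuclear DNA-binding protein encoded within 5 Mb of Plcg2, stood at 11.5 to 19.1 CPM in Trem2KO and 23.8 to 34.9 CPM in Plcg2HET. Zc3h11a, which takes part in mRNA export, stood at 69.0 to 84.4 CPM in Trem2KO and 120 to 152 CPM in Plcg2HET. Neither gene's groups overlapped.

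The difference between the genotypes was in the same direction in both sexes for the leading genes. Itgax stood at -3.52 in males and -3.41 in females, Cst7 at -3.53 and -3.01, Clec7a at -2.84 and -2.37, and Cd74 at -2.21 and -2.31. Each sex alone had 3 mice a group, and 27 genes were called in males (27 lower) and 223 lower and 10 higher in females. A test of the sex difference in the genotype effect called 0 of 15909 genes by edgeR, with 134 at an unadjusted p under 0.05. That is a smaller share than the 0.05 given by chance, and without Plcg2HET M3 the number was 1109. With 3 mice per group and sex, 0 calls do not show that the effect was equal in males and females. Ch25h stood at -0.79 in males and -3.10 in females, with an unadjusted p of 0.00349 and an adjusted p of 1 for the difference. Spp1 stood at -0.83 in males and -1.95 in females, Gpnmb at -1.24 and -2.02, and Per2 at -1.28 and -0.58, with unadjusted p of 0.00377, 0.0617 and 0.00685 for the sex difference and an adjusted p of 1 for each in edgeR. These genes were picked after their values were seen.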

How the data were processed

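RNA from 24 cortices (PureLink RNA mini kit, KAPA mRNA HyperPrep kit, 100 ng of RNA, per the labels) was sequenced, and 12 libraries were compared. The authors deposited a table of raw counts over 24421 genes. STAR 2.7.10a, featureCounts 2.0.3 and mm10 are named in the submitters' processing notes. A further deposited table holds expected counts, TPM and FPKM with lengths, per the file headers. The tool behind it and the strand setting of the counting are not given in the sources used. TPM was used only to describe levels, FPKM was not used, and expected counts, rounded, entered 1 alternative.

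Genes were kept by filterByExpr with a minimum count of 10 by group (15909 genes). The counts were scaled by TMM and fitted with edgeR 4.0.16 in R 4.3.3 (robust quasi-likelihood, 1 mean per group plus sex, 12 libraries). P-values are from the quasi-likelihood F-test, adjusted by Benjamini-Hochberg over all genes tested, and genes under 0.05 are called. Log2 fold changes are Trem2KO minus Plcg2HET. A two-sided exact permutation test on log2(CPM + 0.5) was added for Trem2 and Plcg2. The sex difference was tested in a model with 1 mean per group and sex. Outlying libraries were sought by Dixon's test, with a critical value of 0.625 for 6 samples.

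The members and the 37 gene lists were chosen with earlier results of these data known, and lists are described by counts and medians, with no set test. Of 552 list genes 537 were in the table and 503 were tested. The list of mitochondrially encoded genes had 0 members in the table. Of 16 blood and lymphocyte genes 2 were tested, and 0 were called by edgeR. Named genes were Trem2 and Plcg2, the 12 largest rises and 12 largest falls among calls at or above an average log2 CPM of 1 (unnamed predicted genes left out), the 4 called members of each list with the smallest p, and all called members of the TREM2 and DAM stage 2 lists. Gbp4, Gfap, Banp, Zc3h11a, members named as not called and cell type markers were named after their values were seen. Of 129 named genes 12 share exon bases with another gene, among them Cd74, Ctsz, Lhfpl3, Gpr17, Pdia4 and Cry2, and can share or lose reads. Some genes that the rule names are not reported here.

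In counts simulated for this comparison over 15785 genes, calls were made for 46.3% of genes given a 1.5-fold change (31 of 67), 94% at 2-fold (63 of 67) and 100% at 4-fold (66 of 66), and 9 of 169 calls were false. Simulated counts were drawn independently for each gene, with no sex effect, GC trend or shift shared between genes. These rates therefore need not hold in the measured libraries. Alternatives were the replicate code as a block, RLE size factors, a fit without sex, all genes unfiltered or only those with a mean CPM from 1 upwards, 18 libraries with the homozygous Plcg2 knockouts added, each sex alone, DESeq2 1.42.0, offsets for GC content and length from a spline, expected counts, each library left out and 2 pairs left out. Removing Rn45s was chosen after seeing the data, and the 2 pairs are not defined by the labels. Of the 12 libraries, M3 and F2 have the lowest GC correlations, and F1 and F3 the highest Rn45s shares. GC content came from the GENCODE annotation for 15789 genes (99.2%), and promoter sequences from RefSeq on GRCm38.p6.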

Additional observations from a re-analysis of the deposited data

Results flagged for a closer look

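Of 266 sets of 6 libraries, 5 held a library that lay far from the nearest of the others relative to the range of its group, where chance flags about 1 in 20. Plcg2HET F3 held 29% of its counts in Rn45s, against 5.29% in the next library. The same library stood at 392000 CPM of Rn45s, against 54200 in the next. Trem2KO F1 was low, with 0.334% of counts in Rn45s against 2.34% in the next library. Pik3ap1 stood at 6.66 CPM in Trem2KO F3, against 5.63 in the next library. Atp6v0d2 stood at 0.101 CPM in Trem2KO M2, against 0.0285 in the next library.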

How the results depend on the processing

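Leaving out 1 library at a time gave 762 to 1919 genes called (244 to 779 higher, 518 to 1140 lower), against 1321. Leaving out Plcg2HET F1 and F3 gave 587 (171 higher, 416 lower), and leaving out Plcg2HET M3 and F2 gave 5518 (2717 higher, 2801 lower). The count was 27 in males (0 higher, 27 lower), 233 in females (10 higher, 223 lower), 2163 with the homozygous Plcg2 knockouts in the fit (977 higher, 1186 lower) and 2247 by DESeq2 (911 higher, 1336 lower). With GC and length offsets it was 3344 (1590 higher, 1754 lower), and with these offsets and the replicate block 3211 (1563 higher, 1648 lower). With the replicate block alone it was 978 (344 higher, 634 lower). The codes shared between groups do not mark shared animals, and correlations between same-coded libraries were -0.0925 to 0.191, with 1 of 6 codes best matched to itself, so the block has no basis in the design. RLE size factors (1312), no sex term (1379), no filter (1159), a mean CPM of at least 1 (1318), expected counts (1195) and removal of Rn45s (1316) moved the count by less than 1.5 times. Plcg2, which was called in none of the 27 alternatives, stood at -0.05. It turned positive with the replicate block (0.0206), in males (0.0242), with offsets and block (0.0248) and without Plcg2HET F1 and F3 (0.193), and ran from -0.184 to 0.101 with 1 library left out. Rn45s, also never called, stood at -0.95, at 0.867 in males, 1.07 without Plcg2HET F1 and F3, and -1.44 to 0.252 with 1 library left out. The sex difference was called for 0 genes under every alternative run for it, with 82 to 1109 genes at an unadjusted p under 0.05. Of 3420 values of the other named genes under alternatives (Trem2 and Plcg2 apart), 3021 kept direction and side of the threshold, 396 lost the call and 3, those of Rn45s, changed sign. The cause of these shifts was not tested. At these depths, 46.3% of simulated 1.5-fold changes were recovered, so changes of that size can be missed.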

Other observations

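The gene lists held 503 of the 15909 genes tested, so most called genes lay outside them. Of the 816 genes lower in Trem2KO, 158 were in a list (median log2 fold change -0.90) and 658 in none (median -0.64). Of the 505 higher genes, 18 were in a list (median 0.46) and 487 in none (median 0.48).

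The homozygous Plcg2 knockout libraries, scaled with the 12 libraries compared here, held 13.9 to 28.4 CPM of Trem2, 0.229 to 1.82 CPM of Itgax, 0.81 to 5.56 CPM of Cst7, 1.11 to 6.57 CPM of Clec7a and 12.3 to 24.1 CPM of Tyrobp (6 libraries). Trem2KO held 1.35 to 3.85 CPM of Itgax, 3.02 to 10.2 CPM of Cst7, 2.96 to 8.94 CPM of Clec7a and 12.7 to 27.5 CPM of Tyrobp. These values are given side by side, and the groups were not tested against each other here.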
